A study of Mus musculus with 6 samples.

Results

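The p53 family and genes that regulate it were followed at the mRNA level in mouse iPSC constructs exposed to intermittent compressive force (ICF). The 7 genes were chosen by symbol and found through their Ensembl identifiers among 50686 genes in the count files: the family members Trp53, Trp63 and Trp73, and the regulators Mdm2, Mdm4, Ppm1d and Usp7. The iPSCs had been reprogrammed from mouse gingival fibroblasts and grown on SNL feeder cells, which were removed by selective trypsinization before embryoid bodies were formed. All constructs, loaded or not, had been treated with all-trans retinoic acid, attached to gelatin-coated plastic and kept in serum-free medium for the 24 h of the experiment. The 3 ICF samples received 1.5 g per square centimetre at 0.23 Hz, and the 3 control samples were left unloaded. Genotype, strain and sex of the source mice are not given in the sources used here, and the numbers 1 to 3 that the labels assign to donors in each group are called replicates below.

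p53, encoded by Trp53, is a transcription factor that is held at a low protein level in unstressed cells and is released after stress or DNA damage to induce genes of cell cycle arrest, apoptosis and repair. p63 and p73 recognise similar DNA elements and are known for their parts in stratified epithelium and in ciliated and neural tissue. Mdm2 is a ubiquitin ligase that marks p53 for degradation and is itself a target gene of p53, which closes a negative feedback loop. Mdm4 resembles Mdm2, binds the p53 transactivation domain and forms a heterodimer with Mdm2. Ppm1d, also known as Wip1, is a phosphatase induced by p53 that removes activating phosphates from p53 and its kinases. Usp7 removes ubiquitin from both Mdm2 and p53. Much of this control acts on protein, which was not measured in these files.

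The DNA element recognised by p53 is made of decamers called p53 half-sites: purines, a C, A or T bases, a G and pyrimidines. RefSeq windows before a transcription start were at hand for 6 of the 7 genes, and Trp63 had none. Among the 8 windows of 250 bases upstream of these starts, 3 held an exact half-site, those of Mdm2, Ppm1d and Trp53. Each of the 3 held 1 match only, so none held a pair of exact half-sites. Over all 32851 windows of this length, 7.13% held at least 1 exact half-site. The motif reads as its own reverse complement, so a single search covered both strands. The stretches around these matches are shown because they belong to the ubiquitin ligase and the phosphatase of the feedback loop and to p53 itself; the half-site is in capitals, and bases within annotated exons were left out. All are from GRCm38.p6 and read 5′ to 3′ on the strand of the gene.
Mdm2, chr10:117710759-117711008, reverse strand: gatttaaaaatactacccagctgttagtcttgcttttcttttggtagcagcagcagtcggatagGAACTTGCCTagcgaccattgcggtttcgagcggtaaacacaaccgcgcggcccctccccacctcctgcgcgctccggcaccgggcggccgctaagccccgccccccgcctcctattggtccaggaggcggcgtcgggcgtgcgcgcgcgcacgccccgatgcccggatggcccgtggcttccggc
Ppm1d, chr11:85311004-85311243, forward strand: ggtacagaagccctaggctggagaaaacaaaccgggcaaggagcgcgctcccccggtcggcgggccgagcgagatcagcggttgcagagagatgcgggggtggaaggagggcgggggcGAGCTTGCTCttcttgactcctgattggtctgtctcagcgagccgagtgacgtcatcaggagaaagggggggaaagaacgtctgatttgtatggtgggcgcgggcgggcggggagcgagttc
Trp53, chr11:69580256-69580358, forward strand: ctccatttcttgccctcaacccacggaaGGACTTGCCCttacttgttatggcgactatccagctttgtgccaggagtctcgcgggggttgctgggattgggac
The first base of the match lay 186 bases before the RefSeq start in Mdm2, 132 bases in Ppm1d and 75 bases in Trp53. The p53-responsive promoter of Mdm2 known from its first intron lies outside this window and was not analysed here. The windows before both RefSeq starts of Trp73 and both of Mdm4, and that of Usp7, held no exact match. A match in letters is a description of the sequence and does not show binding.

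The libraries held 28711166 to 34194413 reads assigned to genes. ICF replicate 3 stood apart from the other libraries: 89.0% of its nonzero counts could be divided evenly by 4, where the others had 20.3% to 21.5%, and the first principal component, with 51.3% of the variance, placed it at 51.8 while the other samples lay between -29.7 and 8.09. The results below are therefore also given without it where they rest on it. All 10 markers of pluripotent cells were detected. Their summed level ran from 3846 to 4656 CPM in the control and from 3479 to 3928 CPM with ICF, led by Pou5f1, Dppa5a and Tdgf1, and of the 10 only Tdgf1 passed the test, with a log2 fold change of -0.81. Of 10 markers of fibroblasts or feeder cells, led by Pdgfra, Col1a1 and Col1a2, the summed level ran from 224 to 251 CPM in the control. With ICF it ran from 254 to 277 CPM, with 3 of 9 tested markers higher (1 without ICF replicate 3) and 0 lower. Most of this sum was Pdgfra, at 178 CPM in the control and 182 CPM with ICF. The 3 called were Col1a1 (log2 fold change 0.75) and, named after their values were seen, Col3a1 (0.73) and Twist2 (0.85). Of 8 neuronal markers, led by Stmn2, Tubb3 and Nefl, the summed level ran from 348 to 381 CPM in the control. With ICF it ran from 262 to 312 CPM, with 3 markers lower (2 without ICF replicate 3) and 0 higher. Stmn2 was among them (log2 fold change -0.37), as was Elavl3 (-1.32), named after its values were seen. Tubb3 (-0.23) did not pass. Of the 8 markers, 2 had a log2 fold change above 0. Among these was Dcx (1.14), also named after its values were seen. Dcx did not pass and averaged 0.28 CPM in the control and 0.63 CPM with ICF. Beside these calls, 3.47% of all tested genes were higher and 4.38% lower with ICF in edgeR. Without ICF replicate 3 the shares were 3.73% and 4.52%. None of these 28 markers was at 0 in all samples. In bulk RNA, fewer cells of a type and less RNA per cell cannot be told apart, and the part of these marker shifts in the results below was not tested.

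The members spanned a wide range of mRNA levels. Levels between genes are given as CPM per kilobase of exon, where CPM is the usual read count relative to the TMM-adjusted library size. In the control, Trp53 had the highest level, 108 ± 5.29 CPM per kilobase (SD, n = 3), followed by Usp7 at 61.4 ± 2.57 and Mdm2 at 24.3 ± 3.77. Ppm1d at 16.1 ± 0.75 and Mdm4 at 12.05 ± 1.84 came next, and Trp73 at 0.55 ± 0.16 and Trp63 at 0.021 ± 0.018 were far lower. No neighbours in this order overlapped between samples in the control. With ICF the order was the same, and only Ppm1d (19.0 ± 1.62) and Mdm4 (16.3 ± 2.88) overlapped. Their order depends on the length used: per kilobase of the longest transcript, a choice made after the data were seen, Mdm4 was at 25.1 ± 3.83 and Ppm1d at 17.6 ± 0.83 in the control. Among the tested genes, ranked by level per kilobase over all 6 samples, Trp53 stood at percentile 97.6, Usp7 at 94.9, Mdm2 at 89.1 and Trp73 at 28.2.

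**Figure D1:**
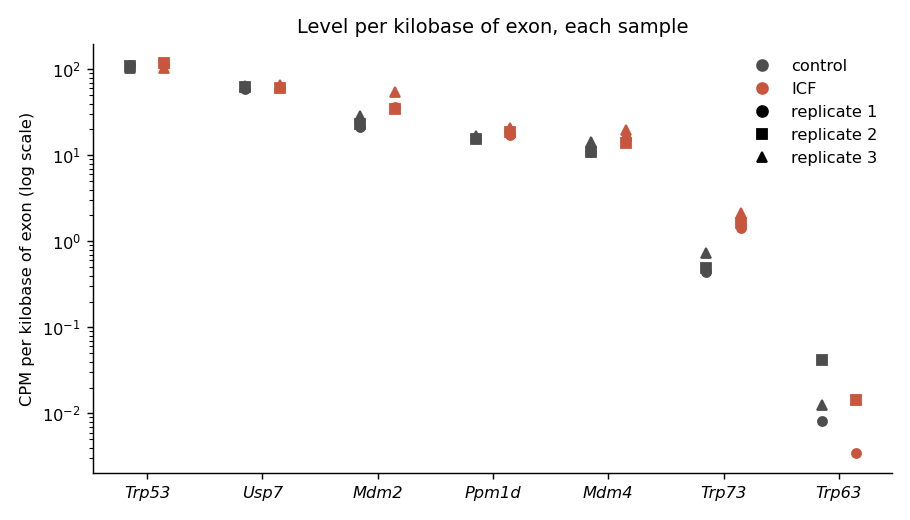
Level of each member in every sample, as CPM per kilobase of exon on a log axis, with control samples in grey and ICF samples in red. Trp53 lies highest and Trp63 lowest in both groups, and the ICF sample in which Trp63 was at 0 cannot be drawn on a log axis.

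Of the 7 members, 6 had enough counts to be tested. With edgeR's quasi-likelihood test and a Benjamini-Hochberg adjusted p under 0.05, Trp73 and Mdm2 were upregulated by ICF and none was downregulated. Among all 16729 genes tested, 7.85% passed this threshold, made up of 3.47% higher and 4.38% lower with ICF. Every ICF sample was above every control sample for 3 members, Trp73, Mdm2 and Ppm1d, and this held for 15.6% of all genes. The labels give the same donor numbers to both groups, and with the donor number as a block in edgeR 4 members passed, Trp73, Mdm2, Mdm4 and Ppm1d, all higher. That test called 29.9% of all genes, made up of 14.6% higher and 15.3% lower. DESeq2 called 3 members, Trp73, Mdm2 and Mdm4, and 13.9% of all genes, of which 6.38% higher and 7.5% lower. With the block DESeq2 called the same 4 members as edgeR and 20.6% of all genes, of which 9.64% higher and 11% lower. Without ICF replicate 3, the members past the edgeR threshold were again Trp73 and Mdm2, and 8.25% of all genes passed, 3.73% higher and 4.52% lower. Without control replicate 1, control replicate 2 or ICF replicate 1 only Trp73 passed, and the share of all genes called was 2.1%, 1.76% and 2.76%. Without control replicate 3 Mdm4 passed as well, and 9.7% of all genes did.

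**Figure D2:**
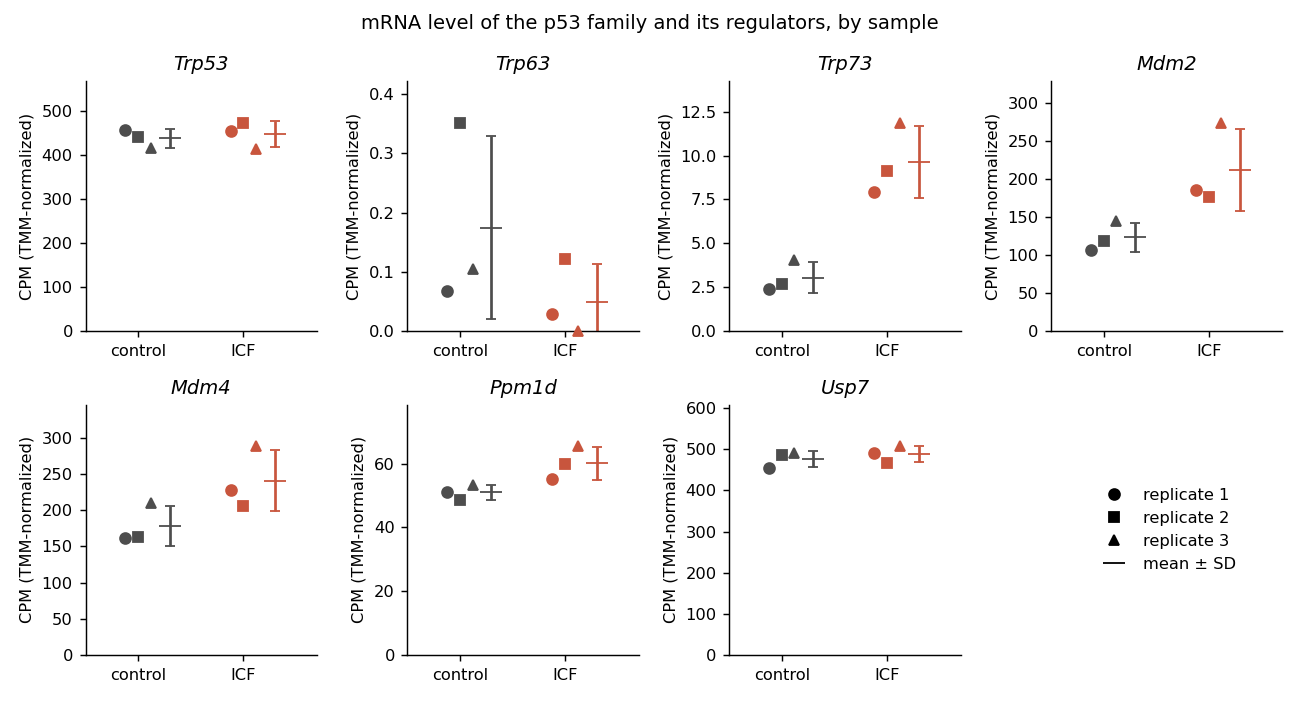
CPM of the 7 genes in each of the 6 samples, with control in grey, ICF in red, the symbol giving the replicate number, and the mean with its SD to the right; the vertical axes start at 0 and differ between genes. Trp73 and Mdm2 separate the groups, whereas Trp53 and Usp7 overlap between them.

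Trp53 mRNA did not pass the test. The gene lies on chromosome 11 of GRCm38, forward strand, from 69580359 to 69591873. Its level was 457, 440 and 415 CPM in control replicates 1, 2 and 3 and 455, 473 and 414 CPM with ICF. The groups overlapped, and replicate 3 was the lowest sample of each group. The means were 437 ± 21.4 CPM (SD, n = 3) in the control and 448 ± 30.0 CPM (SD, n = 3) with ICF. On the log2 scale the change was 0.03, standard error 0.07 (adjusted p = 0.80, edgeR's quasi-likelihood test). With each sample left out in turn it stayed between -0.00 and 0.09. The processed pseudogene Trp53-ps, which has 0.47% of the 75-base stretches of the longest Trp53 transcript in common with it, was counted 68 to 91 times per sample.

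Trp73 had the largest rise of the members, from a low level. It lies on chromosome 4, reverse strand, from 154056253 to 154140208. It was counted 71, 84 and 116 times in the control samples and 275, 301 and 344 times in the ICF samples. In CPM these were 2.43, 2.68 and 4.04 without load and 7.92, 9.11 and 11.9 under load. The lowest ICF sample was above the highest control sample. The fold change was 3.16, or 1.66 ± 0.28 (SE) on the log2 scale (adjusted p = 0.0041, edgeR), at percentile 99.9 of the log2 fold changes of all tested genes. The differences between same-numbered samples were 1.68, 1.74 and 1.54 on the log2 scale. All 6 tests that left out a sample passed, with log2 fold changes from 1.49 to 1.91. The annotation places 2 RefSeq starts in this gene, far apart, of which the downstream one gives rise to forms without the transactivation domain, and counts per gene do not separate them. The antisense gene Trp73os was counted at most 2 times in any sample.

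Trp63, on chromosome 16, forward strand, from 25683763 to 25892102, was close to undetected. Its counts were 2, 11 and 3 in the control samples and 1, 4 and 0 in the ICF samples, and it did not reach the filter on low counts. A count of 0 in a library allows up to 3 counts, or 0.104 CPM in ICF replicate 3, a limit that may be too low for this library because its counts mostly step by 4. Only control replicate 2 and ICF replicate 2 exceeded 3 counts, and no fold change is given.

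Mdm2 rose with ICF. It lies on chromosome 10, reverse strand, from 117688875 to 117710758. None of the 75-base stretches of the longest Mdm2 transcript occurs in transcripts of another gene. Its level was 107.5, 118.7 and 144.8 CPM in the control samples and 185.7, 176.6 and 274.5 CPM in the ICF samples. All ICF samples were above all control samples, and replicate 3 was the highest of each group. The fold change of 1.72 corresponded to 0.78 ± 0.24 (SE) on the log2 scale (adjusted p = 0.030, edgeR). By donor number the log2 differences were 0.79, 0.57 and 0.92. Without control replicate 1, control replicate 2 or ICF replicate 1 the adjusted p was 0.13, 0.13 and 0.053 in the same edgeR test, with log2 fold changes of 0.69, 0.75 and 0.87. Without ICF replicate 3 the log2 fold change was 0.56 and the adjusted p was 0.019.

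Mdm4, the binding partner of Mdm2, was higher on average with ICF but did not pass the threshold in edgeR's unpaired test. It lies on chromosome 1, reverse strand, from 132959484 to 133030561. Its level was 162, 163 and 210 CPM in the control samples and 229, 206 and 288 CPM in the ICF samples. The groups overlapped in a single place, where control replicate 3 lay above ICF replicate 2. The mean change was 0.43 ± 0.19 (SE) on the log2 scale (adjusted p = 0.089, edgeR), and the 3 same-numbered pairs gave 0.50, 0.34 and 0.46. With the donor number as a block the adjusted p was 2.8e-08 in edgeR, and without the block DESeq2 gave an adjusted p of 0.023. Without ICF replicate 3 the log2 fold change was 0.29 (adjusted p = 0.15, edgeR) and without control replicate 3 it was 0.57 (adjusted p = 0.033, edgeR). Other genes share 8.01% of the 75-base stretches of the longest Mdm4 transcript, among them the pseudogene Mdm4-ps, which was counted at most 6 times per sample.

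Ppm1d moved by less. It lies on chromosome 11, forward strand, from 85311244 to 85347066. Its level was 51.1, 48.7 and 53.5 CPM in the control samples and 55.2, 59.9 and 65.5 CPM in the ICF samples, without overlap. The mean change was 0.24 ± 0.08 (SE) on the log2 scale (adjusted p = 0.10, edgeR), and with the donor number as a block the adjusted p was 0.0031. The exact two-sided permutation test gave p = 0.1 for Ppm1d, as for Trp73 and Mdm2, and this is the smallest p that 3 samples against 3 allow.

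Usp7, on chromosome 16, reverse strand, from 8689595 to 8792308, showed no difference past the threshold. Its level was 454, 485 and 491 CPM in the control samples and 490, 468 and 507 CPM in the ICF samples. The groups overlapped, and the same-numbered pairs went in both directions, with log2 differences of 0.11, -0.05 and 0.05. The mean change was 0.03 ± 0.05 (SE) on the log2 scale (adjusted p = 0.76, edgeR).

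**Figure D3:**
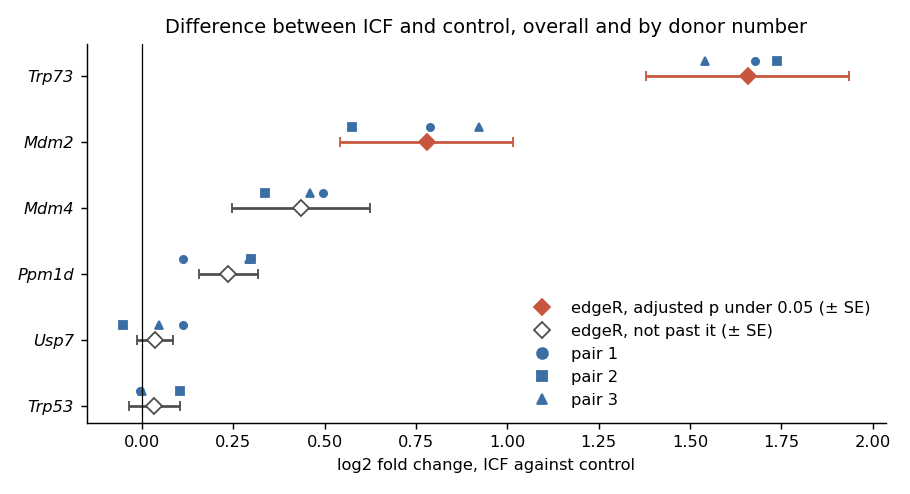
Log2 fold change of the 6 tested members, ICF against control (diamonds, with standard errors from the spread between replicates; filled red where the adjusted p was under 0.05), and above each the differences between same-numbered samples (blue symbols). Trp73 and Mdm2 lie to the right of 0 in every pair, as do Mdm4 and Ppm1d, whereas the pairs of Usp7 and Trp53 lie on both sides. Of all tested genes, 28.3% were higher with ICF in every same-numbered pair.

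To set the regulators against the p53 mRNA within the same library, the difference of log2(CPM + 0.5) between 2 members was computed for each sample. This removes most of the scaling between libraries, though the added 0.5 still affects a gene at a low level. Mdm2 minus Trp53 was -2.08, -1.89 and -1.51 in control replicates 1, 2 and 3 and -1.29, -1.42 and -0.59 in the ICF samples. It was higher in all ICF samples than in all control samples, by 0.73 with a standard error of 0.31. Trp73 minus Trp53 rose by 1.49 with a standard error of 0.32, from -6.97 ± 0.40 (SD, n = 3) to -5.48 ± 0.37 (SD, n = 3), again without overlap. With 0.1 or 2 added in place of 0.5, the rise of Trp73 minus Trp53 was 1.61 or 1.17. Mdm2 also gained on Mdm4: the difference was -0.59, -0.46 and -0.53 in the unloaded samples and -0.30, -0.22 and -0.07 in the loaded ones, a shift of 0.33 with a standard error of 0.08. These 3 shifts each had p = 0.1 in the exact two-sided permutation test, the smallest possible, and 0.20 after Benjamini-Hochberg adjustment over the 6 differences compared. Mdm4 minus Trp53 (shift 0.40, standard error 0.26, exact permutation p = 0.3) and Ppm1d minus Trp53 (shift 0.20, standard error 0.14, exact permutation p = 0.3) overlapped between the groups. Usp7 minus Trp53 shifted by 0.00 with a standard error of 0.12. Without ICF replicate 3 the shift against Trp53 was 0.47 for Mdm2, 0.21 for Mdm4, 0.083 for Ppm1d and -0.080 for Usp7. The design cannot bring any of these tests under 0.05.

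**Figure D4:**
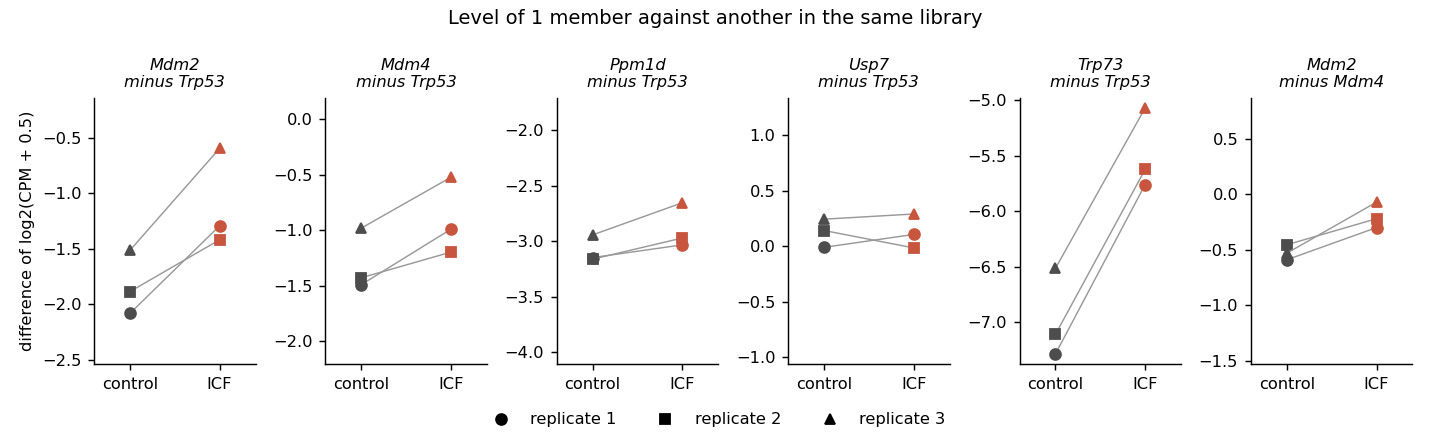
Difference of log2(CPM + 0.5) between 2 members in each library, control on the left and ICF on the right of each panel, with lines joining samples of the same donor number; all panels span the same height. The lines climb in all 3 pairs in every panel except that of Usp7 against Trp53, where they go both ways.

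Within the groups the members also varied by replicate. Replicate 3 was above replicates 1 and 2 in both groups for 5 of the 6 tested members, Trp73, Mdm2, Mdm4, Ppm1d and Usp7, a pattern found in 27.5% of all tested genes. Taken alone, it was found in 40.5% of genes in the control and in 42% with ICF. In Mdm2 it exceeded the mean of the other replicates by 0.36 on the log2 scale in the control and by 0.60 with ICF, in Mdm4 by 0.37 and 0.41, and in Trp73 by 0.65 and 0.48. Trp53 went the other way, with replicate 3 lower by 0.11 in the control and by 0.16 with ICF, a pattern of 28.7% of all genes. The coefficient of variation of Mdm2 was 15.5% in the control and 25.5% with ICF, against 4.19% and 4.02% for Usp7.

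Genes that act around p53 were then counted by list. The median log2 fold change of all tested genes was 0.00, and 3.47% of them were called higher and 4.38% lower. Among 30 target genes of p53, 18 were upregulated and 0 downregulated in edgeR's quasi-likelihood test. The median of their log2 fold changes was 0.37, and 24 of the 30 lay above 0. Several of these targets are in the study's own selection from these samples, so their direction is not independent evidence. Btg2, an antiproliferative gene, rose from 48.4 ± 1.07 to 80.9 ± 5.43 CPM (SD, n = 3; log2 fold change 0.74), and Phlda3, an inhibitor of Akt, from 39.7 ± 2.02 to 79.8 ± 9.69 CPM (log2 fold change 1.01). Sesn2, a stress-induced restraint on mTORC1, rose by 0.55 on the log2 scale and Pidd1, a scaffold of caspase-2 activation, by 0.71. The 12 targets that did not pass included Bax (0.03), Fas (0.35), Ddb2 (-0.04), Tigar (0.10), Bbc3 (0.31) and Apaf1 (0.32), named here after their values were seen. Fas had low counts, 7, 25 and 18 in the control samples and 17, 19 and 32 in the ICF samples. The adjusted p was 0.078 for Bbc3 and 0.087 for Apaf1 in edgeR. With the donor block 20 targets were higher and 4 were lower, beside 14.6% and 15.3% of all genes. The 4 lower ones were Gadd45a, Xpc, Sesn1 and Sfn, also named after their values were seen. Without ICF replicate 3, 19 targets were higher and 0 lower, beside 3.73% and 4.52% of all genes. Without control replicate 2 the count fell to 7, and without control replicate 1 to 10, while the genes called higher among all those tested fell from 580 to 85 and 109.

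Among 20 other ubiquitin ligases and deubiquitinases of the p53 family or Mdm2, 1 was higher and 0 lower, and the median of the log2 fold changes was -0.00. The 1 called gene was Rchy1, which encodes the p53 ubiquitin ligase Pirh2 and is itself a p53 target. It rose from 51.2 ± 1.93 to 64.2 ± 2.17 CPM (SD, n = 3; log2 fold change 0.33, adjusted p = 0.019, edgeR). The deubiquitinase Usp28 (-0.21), the ligase Trim24 (-0.21) and the deubiquitinase Usp4 (0.13) came next by p and did not pass. With the donor block 3 enzymes were higher and 3 lower, beside 14.6% and 15.3% of all genes. No enzyme passed without control replicate 1, control replicate 2, ICF replicate 1 or ICF replicate 2, and 2 passed without control replicate 3.

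Of 13 kinases that phosphorylate p53 or its regulators, 0 were higher and 1 was lower, and the median of the log2 fold changes was -0.01. Atr, a kinase activated by replication stress, fell from 64.5 ± 4.04 to 48.7 ± 5.93 CPM (SD, n = 3; log2 fold change -0.41, adjusted p = 0.038, edgeR). Its relative Atm, activated by double-strand breaks, had a log2 fold change of 0.26 (adjusted p = 0.18, edgeR), the mitotic kinase Plk1 of -0.34 and Csnk2a1 of -0.16. With the donor block 1 kinase was higher, Atm, and 4 were lower, beside 14.6% and 15.3% of all genes. Atr did not pass when any sample other than ICF replicate 3 was left out (adjusted p from 0.064 to 0.14, edgeR), and without control replicate 3 the kinases that passed were Atm and Plk1.

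None of 18 cofactors and modifiers of the p53 protein passed edgeR's test, and their log2 fold changes had a median of 0.07. At an unadjusted p under 0.05, 1 did, the acetyltransferase Crebbp with a log2 fold change of 0.24, beside 4277 of all 16729 genes. DESeq2 also called 1 of the 18, beside 13.9% of all genes. Trp53bp1, which binds p53 and acts in DNA break repair, had a log2 fold change of 0.14 and Wrap53 of 0.13, and neither passed. Wrap53 starts next to Trp53 on the opposite strand. With the donor block 5 of the 18 were higher and 0 lower, beside 14.6% and 15.3% of all genes.

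Of 12 genes listed for links to the inhibition of Mdm2, mostly ribosomal and nucleolar, 1 was higher and 2 were lower. The median of the log2 fold changes was -0.10. Not every protein in this list need be an inhibitor of Mdm2 itself. Rps27l, a ribosomal protein gene known as a p53 target, rose by 0.35 on the log2 scale, while the ribosomal protein genes Rps14 and Rpl26 fell by 0.30 and 0.28. The nucleolar Nop53 had -0.27 (adjusted p = 0.098, edgeR). With the donor block 6 were lower and 1 higher, beside 15.3% and 14.6% of all genes. The number of calls was 0 without any one of replicates 1 and 2 of either group, 6 without control replicate 3 and 2 without ICF replicate 3. Ribosomal protein genes have many processed copies, and reads that align to several places were not counted.

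Of 16 genes of tissues shaped by p63 and p73, 11 could be tested, and 1 was higher. Foxj1, a regulator of motile cilia that is known to act downstream of p73, rose from 3.32 ± 0.32 to 6.06 ± 0.98 CPM (SD, n = 3; log2 fold change 0.87, adjusted p = 0.016, edgeR). The basal keratinocyte collagen Col17a1 had a log2 fold change of -0.74 (adjusted p = 0.086, edgeR), Krt17 of -0.46 and Rfx2 of -0.21. The 5 untested genes were Krt5, Krt14, Krt15, Dsg3, markers of stratified epithelium, and Mcidas, each with a mean under 0.3 CPM in both groups, beside the near absence of Trp63. With the donor block 2 were higher and 3 lower, beside 14.6% and 15.3% of all genes. Calls numbered 0 without any one of replicates 1 and 2 of either group and 2 without ICF replicate 3.

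**Figure D5:**
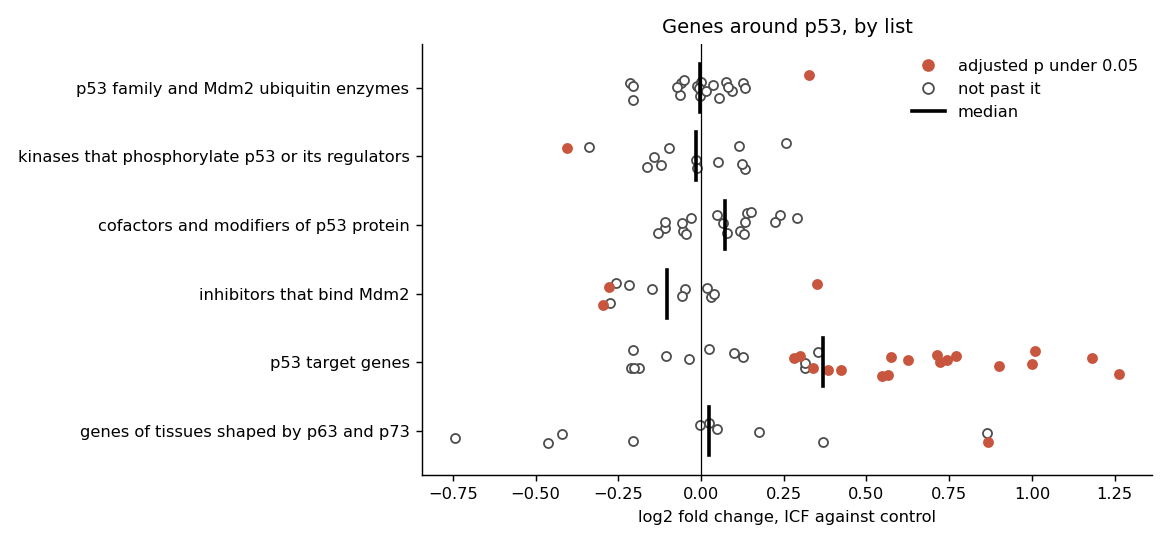
Log2 fold change, ICF against control, of each tested gene in the 6 lists, with genes past an adjusted p of 0.05 in red, the others open and the median of each list as a black bar. The p53 target genes reach to 1.26 with a median of 0.37, while the medians of the other lists lie between -0.10 and 0.07.

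Genes with the most similar profile were sought by Pearson's r of log2 CPM over the 6 samples among 11924 genes whose mean count was 100 or more. For Mdm2 they were Maf, a transcription factor, Polk, a translesion polymerase that is also in the p53 target list, and Ercc6l, a mitotic helicase, with r from 0.998 to 0.999. For Trp73 they were Eny2, Rtl10 and Dnajc9, with r from 0.998 to 0.999, and for Trp53 Map2k2, Pde6d and Rasd2, with r from 0.994 to 0.996. The 6 points share the split into groups and the position of replicate 3, so these values describe these libraries only.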

How the data were processed

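The authors used FastQC and Trimmomatic for quality control and trimming, HISAT2 for mapping and HTSeq for counting. The deposited values are raw counts by gene, whole numbers, 1 file for each of the 6 samples. The labels name GRCm38 and hg38 as builds; the identifiers are mouse. Libraries were strand-specific single reads, while HTSeq's strand setting and tool versions other than bcl2fastq 2.19 are not given in the sources used here. HTSeq gave 29.5% to 31.3% of records as aligned to several places and 0.90% to 0.96% as ambiguous; these were left out. The methods name the Ribospin II kit for RNA extraction and the labels an RNeasy kit.

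Symbols, coordinates and exon lengths came from GENCODE M21, which named 50376 of the identifiers. All 16729 genes that passed filterByExpr by group entered the quasi-likelihood fit of edgeR 4.0.16 (R 4.3.3; TMM factors, glmQLFTest). Genes with a Benjamini-Hochberg adjusted p under 0.05 were called. Standard errors came from the spread of log2 CPM (prior count 2), not from the edgeR fit. Alternatives were DESeq2 1.42.0, RLE size factors, looser and stricter filters, the donor number as a block, the counts of ICF replicate 3 divided by 4, other pseudocounts and each sample left out in turn, and, added after the data were seen, the length of the longest transcript for levels per kilobase. The block takes the donor numbers in the labels as pairs. The study's methods name 3 independent experiments and no donors. Over genes, the deviations from the group means had r of 0.15, 0.20 and 0.38 between samples of 1 number. Samples of different numbers gave -0.34 to 0.26, the highest of them between control replicate 1 and ICF replicate 2. Whether donors are separate animals is not stated, so p-values measure the spread between these samples.

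The 7 members and the lists were chosen with earlier results of these data known. Named besides the members were the 4 genes with the lowest p of each of 6 lists, the 3 most abundant of each of 3 marker lists, and the 3 genes most similar to Mdm2, Trp73 and Trp53. Of these, 1 gene that this rule names is not reported here.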

Additional observations from a re-analysis of the deposited data

How the results depend on the processing

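The log2 fold changes of Trp73, Mdm2, Mdm4 and Ppm1d were positive under every alternative run. Mdm4 passed the threshold with DESeq2 (0.43), with genes kept at 1 count in any sample (0.43) and with the replicate block in edgeR (0.43) or DESeq2 (0.43). Ppm1d passed with the replicate block in edgeR (0.23) and in DESeq2 (0.23). With the replicate block 4 members passed in either tool. Leaving out single samples, 1 to 3 members passed, and log2 fold changes ranged from 0.56 to 0.91 for Mdm2, from 0.29 to 0.57 for Mdm4, from 1.49 to 1.91 for Trp73 and from 0.18 to 0.30 for Ppm1d.

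Values near 0 changed sign: Trp53 ranged from -0.0039 to 0.093 (-0.0026 without ICF replicate 2), Usp7 from -0.00024 to 0.070, and Usp7 minus Trp53 from -0.080 to 0.073 (-0.065 without control replicate 1). With single samples left out, the other differences between members ranged from 0.47 to 0.89 for Mdm2 minus Trp53, 0.21 to 0.56 for Mdm4, 0.083 to 0.27 for Ppm1d, 1.28 to 1.72 for Trp73, and 0.27 to 0.38 for Mdm2 minus Mdm4. With a pseudocount of 2, Trp73 minus Trp53 was 1.17. The exact paired test allows no p under 0.25.

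The lists of ubiquitin enzymes, kinases, cofactors, genes linked to Mdm2 inhibition and p63 and p73 tissues held 20, 13, 18, 12 and 11 tested genes. Calls in this order were 6, 5, 5, 7 and 5 with the replicate block in edgeR, beside 29.9% of all genes. With the replicate block in DESeq2 they were 4, 4, 3, 7 and 4, beside 20.6% of all genes. DESeq2 without the block gave 3, 2, 1 and 5 for the first 4, beside 13.9% of all genes. Genes kept at 1 count gave 2 kinases, 5 genes linked to Mdm2 inhibition and 3 of 16 tissue genes. In that setting 841 of 29738 genes were higher and 1019 lower. The stricter filter gave 2 ubiquitin enzymes and 2 kinases, where 593 of 15390 genes were higher and 743 lower. Dividing the counts of ICF replicate 3 gave 2 ubiquitin enzymes, 2 kinases and 2 tissue genes. With the divided counts 667 of 16729 genes were higher and 875 lower. Single samples left out gave 0 to 2, 0 to 2, 0, 0 to 6 and 0 to 2, and 7 to 19 p53 targets. The share of all genes called then ran from 1.76% without control replicate 2 to 9.7% without control replicate 3. Over all genes, calls rose from 1313 to 5006 with the replicate block in edgeR and to 2052 with DESeq2. The cause of these differences was not tested. Low counts limit Trp63.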
